A study of Mus musculus with 8 samples.

Results

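The vesicle traffic genes described here are the small GTPases of the Rab and Arf families, the SNARE proteins named Vamp and Stx (syntaxins), and the synaptotagmins (Syt). They were taken by symbol: every probe set whose single annotated symbol starts with Rab, Arf, Vamp, Stx or Syt followed by a digit. This gave 98 of the 12488 probe sets on the array, for 74 of the 8252 genes it names singly: 51 Rab, 14 Syt, 12 Vamp, 12 Stx and 9 Arf probe sets. The symbols also bring in a few genes that are not GTPases or SNAREs, such as the regulators Rab3il1 and Rab3ip, the effector Rab11fip5, Rab5if, and the noncoding RNAs Rab10os and Rab26os, whose names place them opposite Rab10 and Rab26.

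RNA came from mouse neurospheres, cultures of neural stem and progenitor cells grown from single forebrains of embryonic day 14.5 embryos, all of which carried a bcl2 transgene, so that every group shares it. Treatment lasted 2 days. The groups were TSA (trichostatin A at 150 nM, which blocks histone deacetylases), AzaC/TSA (both drugs), AzaC (5-aza-2'-deoxycytidine at 500 nM, which blocks DNA methyltransferases) and untreated. Experiments 1 and 2, done independently, gave 1 array to every group, so that all p-values rest on 2 arrays in each of the 4 groups. Signals are probe set intensities on a linear scale, comparable between arrays for 1 probe set but not between probe sets.

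Membrane traffic moves cargo between compartments in vesicles. Arf GTPases recruit coats that form a vesicle, Rab GTPases mark its compartment and recruit the motors and tethers that bring it to its target, and SNAREs of the Vamp and syntaxin families zip together across both membranes to fuse them. In neurons and secretory cells, synaptotagmins sense calcium and Rab3 proteins mark the vesicles, which makes the last fusion step a regulated one.

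Of the 98 probe sets, 72 (60 genes) reached a signal of 50 on at least 2 of the 8 arrays and were tested: 43 Rab, 10 Stx, 9 Vamp, 7 Arf and 3 Syt. Signals under 20 were raised to that floor before taking log2, so a change whose lower side has an array under the floor is given as "at least". The other 26 probe sets never passed a signal of 78.9. The synaptotagmins were the family least often measurable: 11 of 14 Syt probe sets were not tested, and Syt1, Syt2, Syt4, Syt5, Syt6, Syt7, Syt8, Syt9 and Syt10 had no tested probe set. Arf2, Rab17, Rab20, Rab33a and Rab35 likewise had none. No change was tested in these 14 genes.

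The median signal per array was 59.2 to 72.7. The progenitor markers Sox2 and Nes were well above the floor on all 8 arrays, with signals of 2391 to 4830 and 1049 to 3003, so these markers were present. Fabp7 and Hes1 were well above it too, and Pax6 had 39.2 to 159.7. Other progenitor markers were dim. Vim and Hes5 did not pass the filter, Msi1 had 10.3 to 78.0, and Prom1 was under the floor on both untreated arrays (13.8 and 4.2). The actin 5' to 3' signal ratio, a sign of RNA integrity, was 0.29 to 0.39 on TSA-exposed arrays and 0.332 to 0.471 on unexposed arrays, so it moved in part with TSA exposure, and its part in the results was not tested.

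Histone deacetylase inhibition was followed most closely with the 4 TSA-exposed arrays (TSA and AzaC/TSA) set against the 4 unexposed arrays (AzaC and untreated). In this contrast 11 of the 72 probe sets (15.3%), for 9 genes, passed an adjusted p of 0.05 in limma, where 14.5% of all 7987 tested probe sets did. The members' share is close to that of the whole array. Higher with TSA were 6 probe sets (6.95% of all tested): Rab3d, Stx1a, 1 of 2 for Vamp4, both for Rab11a, and Rab12. Lower were 5 (7.54% of all tested): Rab34, both for Rab31, Stx12 and Rab10os. The median log2 change was 0.11 over the 72 probe sets and -0.03 over all tested, and the median size of a change, without its sign, was 0.379 and 0.419.

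The promoters of 6 of these genes are shown because both inhibitors act on chromatin and AzaC acts on methylation at CpG dinucleotides, which are in capitals. No methylation was measured in these samples. Each window runs, in RefSeq's GRCm38.p6, from 250 bases before to 50 bases after an annotated transcript start, written 5′ to 3′ on the gene's strand. The first 3 genes were higher with TSA and the last 3 lower. The windows are chr9:21918134-21918433 (minus strand) for Rab3d, chr5:135023232-135023531 (plus) for Stx1a, chr1:162570265-162570564 (plus) for Vamp4, chr17:65772703-65773002 (minus) for Rab31, chr11:78188177-78188476 (plus) for Rab34 and chr4:132884409-132884708 (minus) for Stx12. Vamp4 and Rab34 have 2 windows each in the table, of which the first is printed.
Rab3d: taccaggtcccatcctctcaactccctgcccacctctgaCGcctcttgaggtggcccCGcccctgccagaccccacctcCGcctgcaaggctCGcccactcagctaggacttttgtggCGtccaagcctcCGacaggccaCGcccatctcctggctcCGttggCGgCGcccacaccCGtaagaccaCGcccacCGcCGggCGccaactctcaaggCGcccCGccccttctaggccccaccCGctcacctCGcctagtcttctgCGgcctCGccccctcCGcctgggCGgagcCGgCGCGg
Stx1a: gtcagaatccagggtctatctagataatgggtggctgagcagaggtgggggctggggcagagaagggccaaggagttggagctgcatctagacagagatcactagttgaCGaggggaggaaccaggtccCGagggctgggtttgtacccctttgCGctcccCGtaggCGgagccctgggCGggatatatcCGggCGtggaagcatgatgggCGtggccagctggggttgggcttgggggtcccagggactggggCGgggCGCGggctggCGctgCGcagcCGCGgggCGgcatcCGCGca
Vamp4: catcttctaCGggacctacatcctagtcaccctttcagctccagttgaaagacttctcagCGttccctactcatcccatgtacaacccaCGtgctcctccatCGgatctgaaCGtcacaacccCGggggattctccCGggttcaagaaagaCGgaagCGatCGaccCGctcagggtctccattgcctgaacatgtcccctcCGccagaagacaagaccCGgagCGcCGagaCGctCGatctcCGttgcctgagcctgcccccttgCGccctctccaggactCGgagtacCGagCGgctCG
Rab31: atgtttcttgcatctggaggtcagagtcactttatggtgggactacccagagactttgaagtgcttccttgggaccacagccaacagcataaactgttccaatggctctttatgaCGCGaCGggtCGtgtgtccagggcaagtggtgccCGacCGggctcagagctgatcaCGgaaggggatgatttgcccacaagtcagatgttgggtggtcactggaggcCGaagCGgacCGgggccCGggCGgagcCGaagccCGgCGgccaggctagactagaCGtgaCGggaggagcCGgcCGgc
Rab34: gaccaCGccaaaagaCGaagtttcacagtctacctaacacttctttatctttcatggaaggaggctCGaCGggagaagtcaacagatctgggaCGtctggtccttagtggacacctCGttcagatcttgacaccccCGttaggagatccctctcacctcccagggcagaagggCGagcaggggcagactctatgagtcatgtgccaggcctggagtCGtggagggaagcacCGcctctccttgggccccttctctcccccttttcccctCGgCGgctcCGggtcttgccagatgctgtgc
Stx12: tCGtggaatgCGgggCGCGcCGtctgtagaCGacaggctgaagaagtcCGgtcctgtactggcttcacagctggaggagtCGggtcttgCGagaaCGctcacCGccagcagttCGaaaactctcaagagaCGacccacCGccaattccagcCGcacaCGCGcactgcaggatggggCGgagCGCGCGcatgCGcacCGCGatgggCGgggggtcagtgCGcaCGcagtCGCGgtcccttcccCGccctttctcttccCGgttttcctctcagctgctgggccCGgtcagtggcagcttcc

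The windows hold 26 CpG in Rab3d, 19 in Stx1a, 23 in Vamp4, 19 in Rab31, 13 in Rab34 and 32 in Stx12. The ratio of observed to expected CpG was lowest in Rab34 (0.518) and highest in Stx12 (0.990). The Rab34 window that is not printed held 25 CpG, with a ratio of 0.817. Counting all windows of the genes that passed, 6 of 6 windows of the 5 higher genes were CpG-rich (GC over 50% and a ratio above 0.6). Of the 5 windows of the 4 lower genes, 4 were. Among all tested member genes 74.2% of windows were. Whether CpG content goes with the direction of change was not tested.

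Vesicle traffic promoters as a group were CpG-rich. The RefSeq table held 84 windows for 63 of the 74 genes, with a median of 21 CpG, where all 32841 windows had a median of 7. CpG-rich windows made up 70.2% of theirs and 33.3% of all. All 8 Arf windows were CpG-rich, against 7 of the 14 Syt windows. The GC box GGGCGG, on either strand, stood in 72.6% of their windows and 35.7% of all, the E-box CACGTG in 15.5% and 7.15%, and the cAMP response element TGACGTCA in 2.38% and 1.79%, each counted on its own even where motifs overlapped. These counts describe letters in a window and not binding. The 32841 windows belong to 27018 genes of the RefSeq table, not only to genes on the array. No share was taken over the array's genes, so whether CpG-rich promoters are particular to vesicle traffic genes was not tested.

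Among the genes of regulated secretion, Rab3d and Stx1a were higher with TSA. Rab3d, a Rab3 protein of secretory granules best known from exocrine cells, had signals of 222.5 and 320.1 in TSA cells and 132.1 and 140.1 in AzaC/TSA cells, against 19.7 and 81.8 in AzaC cells and 63.5 and 38.9 in untreated cells (experiments 1 and 2). All 4 exposed arrays were above all 4 unexposed ones, and the exposed cells without AzaC were the highest. The change was at least 4.25-fold (log2 2.09, SE 0.44, n = 4 arrays a side, limma adjusted p = 0.0155), and it did not pass without TSA 2 (adjusted p = 0.0640) or without untreated 2 (0.0647).

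Stx1a, the plasma membrane syntaxin of synaptic fusion, had signals of 85.3 and 98.1 in TSA cells and 64.7 and 100 in AzaC/TSA cells, against 16.8 and 10.8 in AzaC cells and 34.0 and 32.9 in untreated cells. Exposed and unexposed arrays did not overlap, and both AzaC arrays were under the floor. The change was at least 3.32-fold (log2 1.73, SE 0.33, limma adjusted p = 0.00970). Stx1a passed the filter through exposed arrays alone. It passed under all 14 alternatives that could test it, the fit without a filter among them. Its partner in fusion, Snap25, changed with it: signals were 615.4, 252.0, 550.8 and 304.5 in TSA 1, TSA 2, AzaC/TSA 1 and AzaC/TSA 2, against 31.8, 28.8, 4.3 and 19.6 in AzaC 1, AzaC 2, untreated 1 and untreated 2 (log2 at least 4.03, SE 0.35, limma adjusted p = 0.000251). Snap25 too passed the filter through exposed arrays alone.

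The other probe sets of regulated secretion did not pass; of the 12 tested in this role, 2 were higher and 0 lower (16.7%, close to the 14.5% of all tested probe sets). The calcium sensors give little to go on. Syt3 had signals of 105.0, 198.1, 93.1 and 118.7 in the exposed arrays, in the same order, against 28.5, 108.9, 99.7 and 93.5 in the unexposed ones, which overlap (log2 0.75, limma adjusted p = 0.291). Syt17, a family member whose role was not assigned here, had 64.2, 12.2, 83.3 and 42.3 against 8.5, 6.8, 8.8 and 26.3 (log2 at least 1.11, adjusted p = 0.170). Syt11, a synaptotagmin that does not bind calcium, had 278.5 to 399.9 in exposed and 340.5 to 566.8 in unexposed arrays (log2 -0.21, adjusted p = 0.592).

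**Figure D1:**
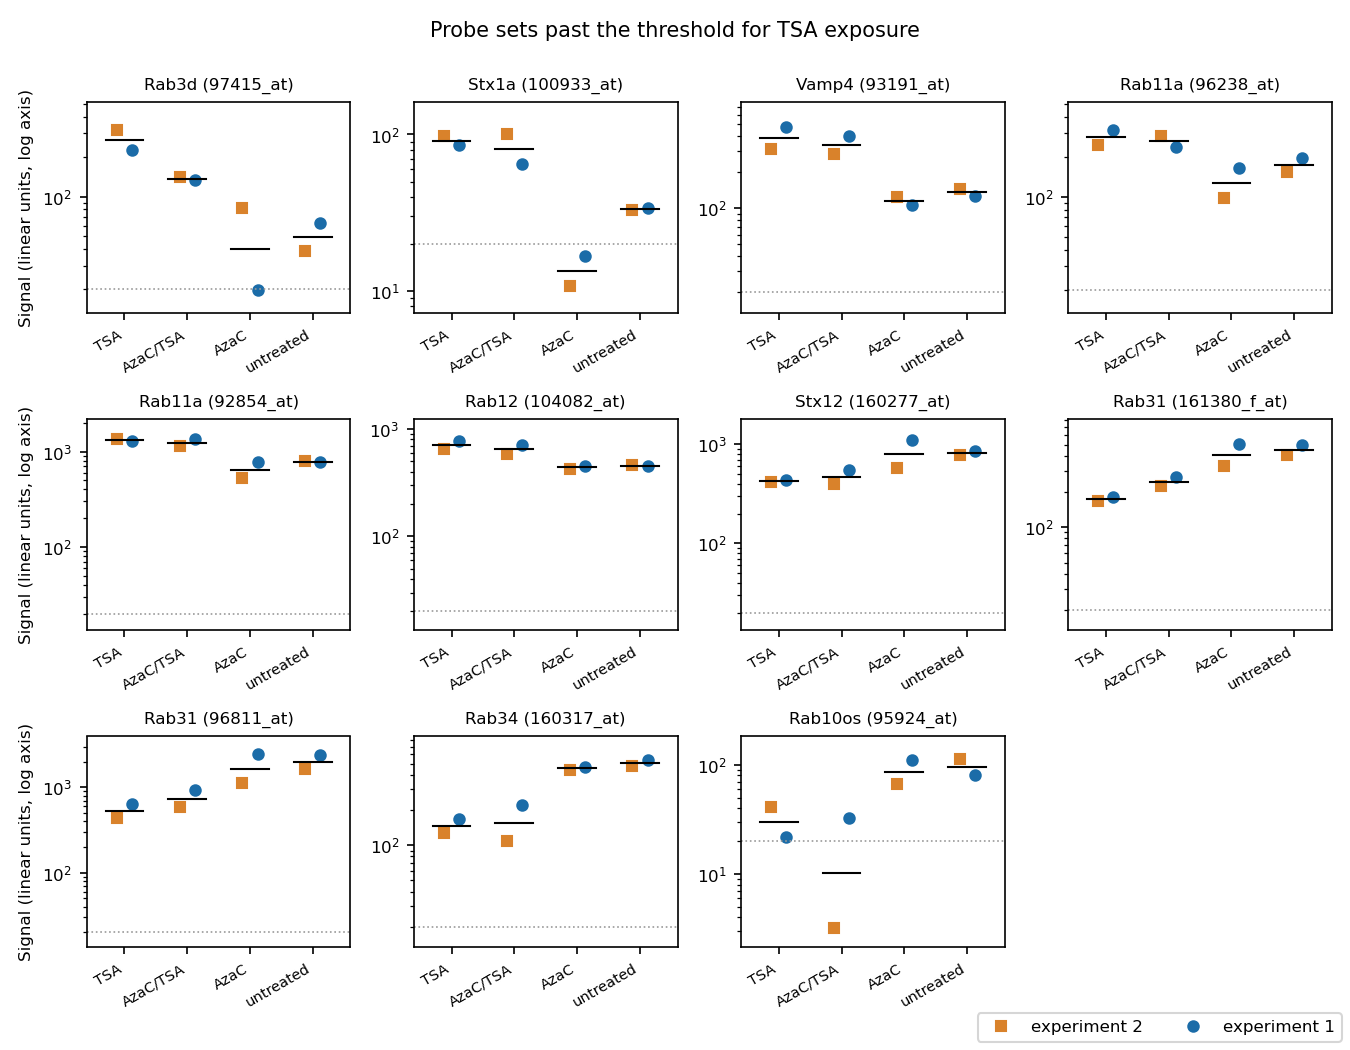
Signal on each array (linear units, log axis) for the 11 probe sets past an adjusted p of 0.05 for TSA exposure, with TSA, AzaC/TSA, AzaC and untreated cells from left to right. Squares are experiment 2, circles experiment 1, bars the geometric mean of the 2 arrays, and the dotted line the floor of 20; Rab3d, Stx1a, Vamp4, Rab11a and Rab12 lie higher in the TSA and AzaC/TSA columns, while Stx12, Rab31, Rab34 and Rab10os lie lower.

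Of 29 tested probe sets assigned to endosomes and lysosomes, 4 were higher and 3 lower (24.1%, where 14.5% of all tested probe sets passed), and the difference between roles was not tested. Rab11a and Rab31 each count here with 2 probe sets, and the roles were chosen with earlier results of these data known. Vamp4, a SNARE of traffic between endosomes and the trans-Golgi network, had the smallest adjusted p of all members. Its probe set 93191_at gave 474.5 and 314.3 in TSA cells and 395.7 and 283.0 in AzaC/TSA cells, against 107.1 and 124.8 in AzaC cells and 126.6 and 144.6 in untreated cells. The lowest exposed array was above the highest unexposed one, at a 2.87-fold change (log2 1.52, SE 0.23, limma adjusted p = 0.00404), which passed in all 15 alternatives.

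A second Vamp4 probe set, 102317_at, did not show this. Its signals were 205.0 and 269.8 in TSA cells and 165.6 and 367.7 in AzaC/TSA cells, against 165.9 and 261.8 in AzaC cells and 168.1 and 192.9 in untreated cells (log2 0.31, limma adjusted p = 0.531). Where on the gene the probe sets lie is not given in the files used here, and the reason for the disagreement was not tested.

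Rab11a, the GTPase of recycling endosomes, was higher on both of its probe sets. The first, 92854_at, gave 1288 and 1339 in TSA cells and 1355 and 1139 in AzaC/TSA cells, against 785.2 and 532.7 in AzaC cells and 777.9 and 793.7 in untreated cells (1.79-fold, log2 0.84, SE 0.18, limma adjusted p = 0.0169). The second, 96238_at, gave 318.7, 245.6, 237.2 and 286.0 in exposed arrays, against 165.8, 98.4, 195.2 and 154.4 in unexposed ones (1.81-fold, log2 0.86, SE 0.25, adjusted p = 0.04996). Neither set of arrays overlapped, and the 2 probe sets gave changes of nearly the same size. The first call was lost without AzaC 2, AzaC/TSA 1, either TSA array or either untreated array (adjusted p of 0.0511 to 0.0608), and the second call without each array but AzaC 1 (0.0832 to 0.151).

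Its close relative Rab11b did not follow it. Rab11b had 451.3 and 225.9 in TSA cells and 409.0 and 307.2 in AzaC/TSA cells, against 655.1 and 639.3 in AzaC cells and 463.4 and 566.0 in untreated cells, lower on every exposed array (log2 -0.78, limma adjusted p = 0.0704). With the experiment as a block it passed (adjusted p = 0.0277), and without TSA 1 as well (0.0331). The difference between the 2 genes was not itself tested.

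Rab12, which is known for sending transferrin receptor to lysosomes, gave the smallest change that passed. Its signals were 766.6 and 652.5 in TSA cells and 705.3 and 589.6 in AzaC/TSA cells, against 457.3 and 421.2 in AzaC cells and 455.4 and 459.0 in untreated cells (1.51-fold, log2 0.59, SE 0.17, limma adjusted p = 0.0488). The arrays did not overlap. The call was lost without any 1 of the 8 arrays (adjusted p of 0.0733 to 0.148).

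Rab31, a Rab5-related GTPase of traffic between the trans-Golgi network and endosomes, was lower with TSA on both probe sets. The first, 96811_at, gave 641.9 and 435.4 in TSA cells and 929.5 and 588.5 in AzaC/TSA cells, against 2471 and 1112 in AzaC cells and 2417 and 1624 in untreated cells (2.90-fold lower, log2 -1.53, SE 0.30, limma adjusted p = 0.0113). The other, 161380_f_at, gave 181.3, 167.9, 264.0 and 222.2 in exposed arrays, against 509.7, 330.3, 492.3 and 408.5 in unexposed ones (2.09-fold lower, log2 -1.06, SE 0.21, adjusted p = 0.0127). No exposed array reached an unexposed one on either. The suffix of the second marks a probe set that can by design read related sequences, and its call held in all 15 alternatives.

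Stx12, the syntaxin of recycling endosomes also called syntaxin 13, was lower too. It had 434.2 and 417.9 in TSA cells and 546.9 and 397.1 in AzaC/TSA cells, against 1106 and 578.6 in AzaC cells and 855.7 and 775.3 in untreated cells. The nearest arrays were AzaC/TSA 1 and AzaC 2, which still did not overlap. The change was 1.81-fold (log2 -0.86, SE 0.24, limma adjusted p = 0.0424), and it was lost without each array but AzaC 2 (adjusted p of 0.0569 to 0.115).

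Among the 16 tested probe sets of the endoplasmic reticulum and Golgi, 0 were higher and 1 was lower (6.25%, where 14.5% of all tested probe sets passed). That was Rab34, a GTPase of the Golgi that in mouse is needed to form primary cilia. It had 168.5 and 126.3 in TSA cells and 220.8 and 107.7 in AzaC/TSA cells, against 470.5 and 439.4 in AzaC cells and 533.2 and 478.4 in untreated cells. The highest exposed array was well under the lowest unexposed one (3.19-fold lower, log2 -1.68, SE 0.26, limma adjusted p = 0.00432), and the call held in all 15 alternatives.

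The Arf GTPases, which recruit coats, lay in a narrow range. All 7 tested Arf probe sets lay between log2 changes of -0.14 and 0.44, with 0 past the threshold in limma and 0 at an unadjusted p under 0.05. Over all 7987 tested probe sets 14.5% passed, and 2364 had an unadjusted p under 0.05. With only 7 probe sets, a count of 0 does not set the Arf family apart. Arf1, which recruits COPI coats at the Golgi, had 4447 to 5910 in exposed and 4298 to 5110 in unexposed arrays (log2 0.19, limma adjusted p = 0.504). Arf3 (93700_at) had 352.0 to 668.9 and 202.2 to 539.5 (log2 0.44, adjusted p = 0.350), and Arf4 709.2 to 965.1 and 764.9 to 1440 (log2 -0.14, adjusted p = 0.677). A further Arf3 probe set, 96587_at, had 18.7 to 99.1 and 20.3 to 87.5 (adjusted p = 0.9755), and 100462_at of Arf6 was not tested.

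Rab10os, annotated as a long noncoding RNA, was lower with TSA. Its name places it opposite Rab10, and since the strand its probes read was not checked here, signal from either strand cannot be told apart. Its signals were 21.6 and 41.1 in TSA cells and 32.8 and 3.2 in AzaC/TSA cells, against 110.4 and 65.9 in AzaC cells and 80.6 and 112.9 in untreated cells (at least 3.26-fold lower, log2 -1.71, SE 0.39, limma adjusted p = 0.0209). All exposed arrays were under all unexposed ones, near or under the floor, so Rab10os passed the filter through unexposed arrays alone. Without a filter its call was lost (limma adjusted p = 0.0729). It was lost without AzaC 1, AzaC/TSA 2, TSA 1 or untreated 2 (adjusted p of 0.0595 to 0.0857). Neither probe set of Rab10 itself, a GTPase of exocytic and endocytic routes, passed: 101933_at had 384.6 to 558.0 in exposed and 356.2 to 582.9 in unexposed arrays, and 160149_at 531.1 to 834.6 and 463.9 to 558.2.

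**Figure D2:**
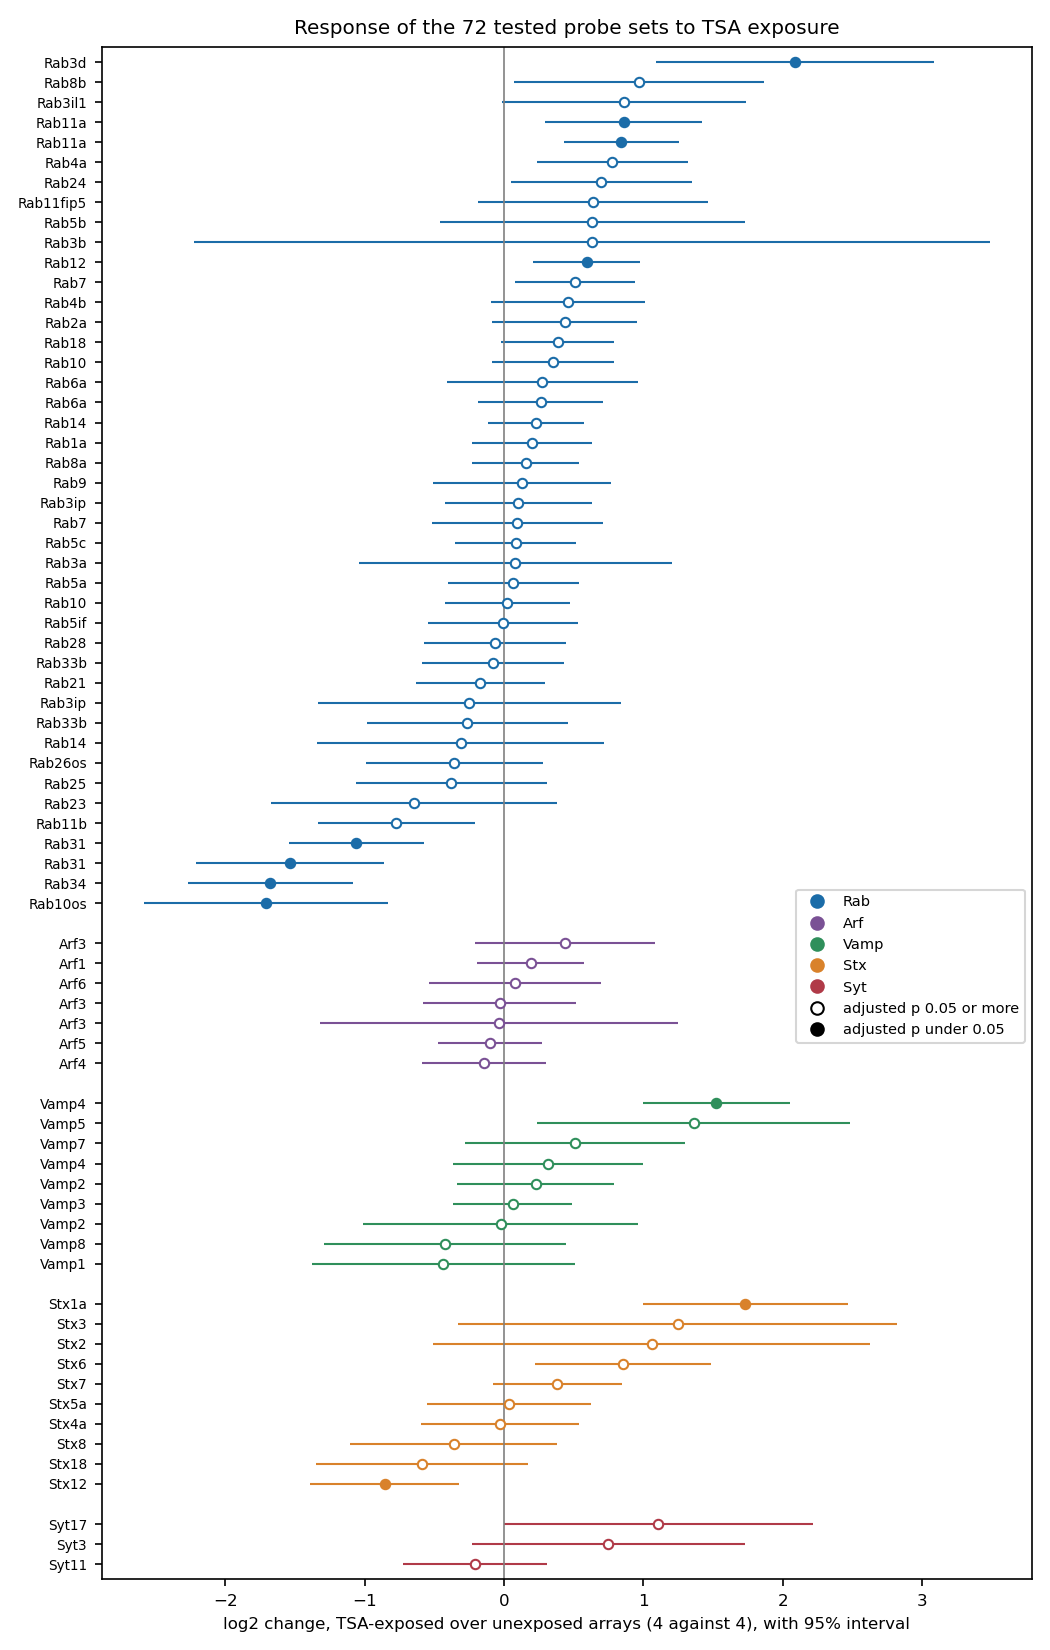
Log2 change (TSA-exposed over unexposed arrays, 4 against 4) of each of the 72 tested probe sets, with its 95% interval from limma, grouped by family and sorted within it. Filled points passed an adjusted p of 0.05; the 7 Arf points sit near 0, while Rab points run from -1.71 to 2.09.

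Calls near the threshold depended on the settings. With no filter on low signals, Rab3d, Rab31 96811_at, Rab10os, Rab11a 96238_at and Stx12 did not pass (adjusted p of 0.0729 to 0.127), and with no intensity trend Rab11a 96238_at, Stx12 and Rab12 did not (0.0700 to 0.0950). Rab11a (96238_at) lay just inside at 0.04996, and Rab4a just outside. Rab4a, the GTPase of fast recycling from early endosomes, had 227.0 and 379.4 in TSA cells and 310.4 and 285.3 in AzaC/TSA cells, against 128.8 and 180.9 in AzaC cells and 203.8 and 186.3 in untreated cells (log2 0.78, limma adjusted p = 0.0620). The exposed arrays were all higher. Stx6, a syntaxin of the trans-Golgi network that pairs with Vamp4, had 202.4, 277.8, 270.9 and 250.4 in exposed arrays, against 115.9, 195.7, 95.6 and 164.8 in unexposed ones (log2 0.85, adjusted p = 0.0737).

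More of these probe sets passed once the experiment was fitted. With the experiment number as a block, 16 of the 72 probe sets passed for TSA exposure, 10 higher and 6 lower (22.2%), where 11 did without it. Over all tested probe sets 23.9% passed with the block and 14.5% without it, so the rise is not particular to these genes. The 5 added were Rab4a (adjusted p = 0.0277), Stx6 (0.0205), Rab24 (0.0125), Rab7 99587_at (0.0401) and Rab11b (0.0277). Rab24, linked to autophagy, had 477.4 and 834.2 in TSA cells and 419.2 and 784.6 in AzaC/TSA cells, against 270.9 and 417.3 in AzaC cells and 360.6 and 465.0 in untreated cells (log2 0.70, adjusted p = 0.141 without the block). Within each experiment its exposed arrays were higher, although AzaC/TSA 1 was lower than untreated 2.

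Rab7, the GTPase of late endosomes, had on 99587_at 1001 and 1366 in TSA cells and 1022 and 1478.5 in AzaC/TSA cells, against 695.8 and 699.7 in AzaC cells and 1026.5 and 1010.5 in untreated cells (log2 0.51, adjusted p = 0.109 without the block). In experiment 1 the TSA array was no higher than the untreated one. All 4 differences within an experiment (TSA minus untreated, AzaC/TSA minus AzaC) had 1 sign in 30 of the 72 probe sets (41.7%) and in 43.2% of all tested. The 11 that passed are among the 30. Their exposed and unexposed arrays do not overlap, which fixes the sign of all 4 differences, so this adds nothing to their calls.

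Arrays that did not overlap give a count that needs no model: 16 of the 72, 9 higher and 7 lower with TSA, had no overlap between exposed and unexposed arrays. Among all tested probe sets 23.6% had none, 11% higher and 12.6% lower. The members are again close to the rest of the array.

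Some markers of cell types moved with TSA exposure too, in a contrast where 14.5% of all tested probe sets passed, 6.95% higher and 7.54% lower. In bulk RNA, fewer cells of a type and less RNA per cell cannot be told apart. Of 11 tested neuron markers, 7 were higher with TSA (Snap25, Reln, Calb2, Syp, Uchl1, Stmn2 and Mapt) and 1, Tubb3, lower. Map2 (log2 -0.59) and Gad1 (-0.41) were below 0 too and did not pass. Without their exposed arrays, Snap25, Reln, Calb2 and Syp would not have passed the filter, so a higher call was favoured in these. The summed signal of the 13 on the array was 4413 to 5254 in exposed and 2940 to 4303 in unexposed arrays. Of these 13, 0 were under the floor on all arrays. Uchl1 alone had 1391 to 1770 in exposed and 304 to 917 in unexposed arrays, so the sums follow a few bright genes. Of 7 tested progenitor markers 1, Fabp7, was lower, with summed signals of the 9 on the array of 5933 to 13077 and 14564 to 17228. Fabp7 alone had 1063 to 5499 in exposed and 7830 to 10920 in unexposed arrays, so the gap between these sums follows mainly 1 gene. The changes of the 7 were below 0 in 5 and above 0 in 2, among them Prom1 (log2 at least 1.75, limma adjusted p = 0.0635). Microglia markers summed to 266.2 to 570.7 and 158.1 to 372.7 (Cd68 higher, 1 of 3 tested), and astrocyte markers to 399.1 to 1200 and 636.2 to 3751 (S100b lower, 1 of 3 tested). Aldoc gave 3451 of the 3751 in AzaC 2, and it was higher in experiment 2 than in experiment 1 (log2 1.94, limma adjusted p = 0.00426). Fibroblast markers summed to 426.1 to 558.6 and 464.2 to 611.1 (Dcn higher, 1 of 3 tested), and 0 of the 5 tested markers of oligodendrocytes, endothelium and blood passed. Cd68 and Dcn likewise would not have passed the filter without their exposed arrays. Under the floor on all 8 arrays were Aif1 and Itgam of microglia, Cnp and Mog of oligodendrocytes, Cdh5 of endothelium and Ptprc of blood cells. Stx1a and Rab3d rose beside the neuron markers, and the part of cell makeup in their change was not tested.

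Genes that work with the members were looked at by role, in the same contrast, in which 14.5% of all tested probe sets passed. Of 24 tested SNARE partners and fusion factors, 2 were higher (Snap25, and the endoplasmic reticulum SNARE Sec22b at log2 0.71, limma adjusted p = 0.0366) and 1 was lower (Bnip1, another SNARE of the endoplasmic reticulum, at -0.79, 0.0426), a share of 12.5%. The median was 0.21. Of 27 regulators and effectors of Rab and Arf proteins, 1 was higher (Arl3, a GTPase of ciliary cargo, at 1.36, 0.0401) and 1 lower (Cyth2, an exchange factor for Arf proteins, at -0.83, 0.0217), a share of 7.41%.

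Most coat genes did not pass. Of 30 tested coat and adaptor subunits 3 did (10%, where 14.5% of all tested probe sets passed): the clathrin light chain Clta (log2 1.02, limma adjusted p = 0.00380) and heavy chain Cltc (0.78, 0.0219) were higher, and Ap4s1, a subunit of the AP-4 adaptor of the trans-Golgi network, was lower. Ap4s1 had 53.2, 56.7, 63.0 and 61.8 in exposed arrays, against 365.7, 278.7, 415.1 and 398.7 in unexposed ones (log2 -2.62, adjusted p = 0.000216). The groups are far apart, with little spread in the exposed cells.

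Synaptic vesicle and granule proteins gave the clearest direction of the 4 partner lists, with 6 of 17 tested higher and 0 lower and a median of 0.71, where 6.95% of all tested probe sets were higher. They were Scg2 (log2 at least 4.38), Chgb (3.79), Chga (2.87) and Resp18 (3.25) of dense-core granules, the granule membrane protein Ptprn (1.72), and the synaptic vesicle protein Syp (at least 1.71). Scg2 had 341.7, 558.1, 281.4 and 675.3 in exposed arrays, against 11.6, 16.2, 24.3 and 7.9 in unexposed ones. Syp is also among the neuron markers. Scg2 and Syp would not have passed the filter without their exposed arrays, so a higher call was favoured in both. The list was also chosen with earlier results of these data known. The tested members of regulated secretion had a median of 0.43, and the difference between the lists was not tested.

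Each TSA group was also set against untreated cells, which asks for the response with and without AzaC, and the 2 comparisons share their untreated arrays. For TSA over untreated, 4 of the 72 probe sets passed, where 5.02% of all tested did: Vamp4 93191_at was higher (log2 1.51, SE 0.33, limma adjusted p = 0.0361), and Rab34 (-1.79, SE 0.37, 0.0299), Rab31 96811_at (-1.91, SE 0.42, 0.0375) and Rab31 161380_f_at (-1.36, SE 0.30, 0.0378) were lower. Rab3d had the largest change, 2.42, and did not pass (0.0616). With the experiment as a block, 6 passed (8.33%, and 12.2% of all tested), with Rab3d (0.0222) and Stx12 (0.0421) added. All 4 calls were lost without any 1 of the TSA and untreated arrays (adjusted p of 0.0949 to 0.213), and Rab31 161380_f_at also without AzaC/TSA 1 or AzaC/TSA 2 (0.0515 and 0.0524).

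For AzaC/TSA over untreated, 1 of the 72 passed, where 3.12% of all tested did. It was Rab34, lower (log2 -1.71, SE 0.37, limma adjusted p = 0.0444). Vamp4 93191_at (1.31, 0.0784), Rab10os (at least -1.90, 0.111), Rab31 96811_at (-1.42, 0.119) and Rab31 161380_f_at (-0.89, 0.170) did not pass. With the experiment as a block 3 passed (4.17%, and 9.34% of all tested): Rab34 (0.00719), Rab31 96811_at (0.00404) and Vamp4 93191_at (0.0295). The Rab34 call was lost without each array but AzaC/TSA 1 (adjusted p of 0.0659 to 0.222).

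With AzaC alone no member passed. Against untreated, 0 of the 72 passed in limma, 0 had an unadjusted p under 0.05, and 0% of all tested probe sets passed (175 had an unadjusted p under 0.05). The 5 of smallest p, none of which passed (adjusted p of 1), were Rab7 99587_at (log2 -0.55), Rab2a (-0.63), a GTPase of the early secretory pathway, Arf4 (-0.53), Rab10 101933_at (0.51) and Arf3 95889_at (0.60).

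Rab2a had 500.1 and 401.5 in AzaC cells, against 695.5 and 690.9 in untreated cells, so its 4 arrays did not overlap. Arf3 95889_at had 300.5 and 423.3 in AzaC cells and 241.2 and 228.5 in untreated cells. With 2 arrays a side, the median 95% half-width of a log2 change was 0.93, so differences of this size were not detectable.

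Taking all 4 AzaC-exposed arrays against the 4 others, 0 of the 72 passed, and 0% of all tested (203 had an unadjusted p under 0.05). Arf3 95889_at alone among the 72 had an unadjusted p under 0.05 (0.0202, adjusted 0.998, log2 0.69, 95% interval 0.135 to 1.24). It had 322.6, 422.5, 300.5 and 423.3 in AzaC/TSA 1, AzaC/TSA 2, AzaC 1 and AzaC 2, against 283.4, 166.1, 241.2 and 228.5 in TSA 1, TSA 2, untreated 1 and untreated 2, and these do not overlap. The Arf3 probe set 93700_at overlapped, with 346.9 to 668.9 in AzaC-exposed arrays and 202.2 to 448.3 in the others. The remaining 4 of smallest p were Arf4 (-0.36), Rab2a (-0.40), Rab10 101933_at (0.32) and Vamp3 (-0.30), the SNARE of recycling endosomes. The median size of a change was 0.176 for the 72 and 0.182 for all tested.

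**Figure D3:**
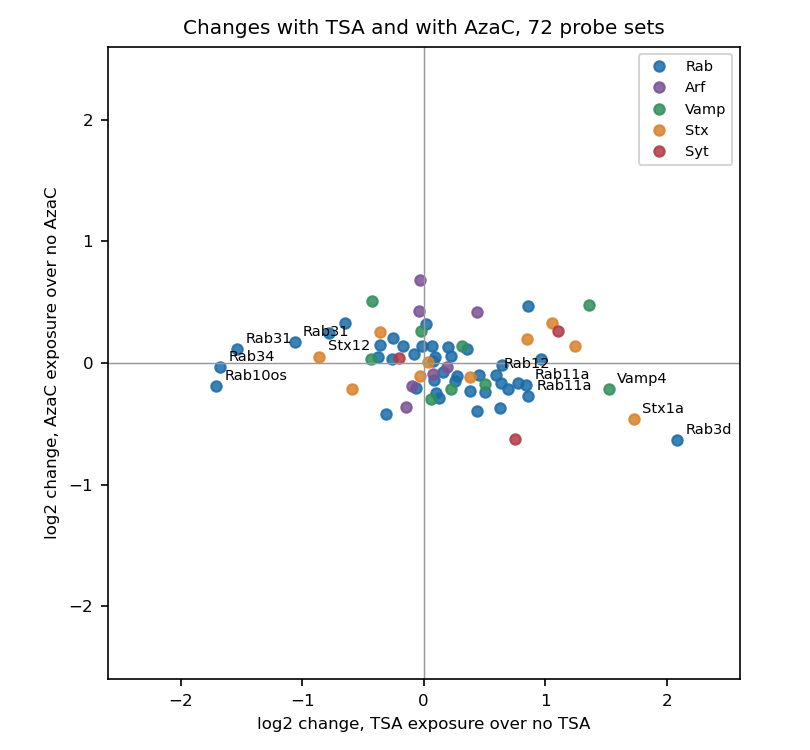
Log2 change with TSA exposure (horizontal) and with AzaC exposure (vertical), each 4 arrays against 4, for the 72 tested probe sets on equal axes, coloured by family. The genes past the threshold for TSA are named; the points spread from -1.71 to 2.09 along the TSA axis and stay within 0.685 of 0 along the AzaC axis.

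Whether AzaC changed the response to TSA was asked of the interaction, (AzaC/TSA minus TSA) minus (AzaC minus untreated). For this 0 of the 72 passed in limma, 0 had an unadjusted p under 0.05, and 0% of all tested passed (142 had an unadjusted p under 0.05). Of smallest p were Rab7 99587_at (0.62), Stx5a (-0.74), Rab31 161380_f_at (0.60), Arf6 (-0.73) and Stx4a (0.63), all with an adjusted p of 1. The median half-width of an interaction was 1.31, so only large ones were detectable.

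The experiments differed for some members. With the experiment added to the group means, 2 of the 72 passed for experiment 2 over experiment 1, where 4.22% of all tested did; this comparison was chosen after seeing the data. Rab3b, a Rab3 protein of regulated exocytosis, had 15.0, 12.1, 6.3 and 6.3 in experiment 2 (TSA, AzaC/TSA, AzaC and untreated), against 346.8, 394.8, 86.3 and 275.5 in experiment 1. All experiment 2 arrays were under the floor and all experiment 1 arrays far above it (at least 11.9-fold lower, log2 -3.58, SE 0.39, limma adjusted p = 0.00192). Rab3b passed the filter through its experiment 1 arrays alone, and without a filter its call was lost (limma adjusted p = 0.157). Rab3b was thus measurable in 1 experiment alone, and the cause was not tested.

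Rab31 96811_at was also lower in experiment 2, with 435.4, 588.5, 1112 and 1624, against 641.9, 929.5, 2471 and 2417 in experiment 1 (log2 -0.74, SE 0.15, limma adjusted p = 0.0302). It is lower within each treatment. The call was lost without either AzaC, AzaC/TSA or TSA array (adjusted p of 0.0954 to 0.140). In 5 of the 72 (Rab3b, Rab5a, Rab6a 98927_at, Stx5a and Syt11) no array of experiment 2 overlapped experiment 1, all lower in experiment 2, where 7.91% of all tested probe sets had no overlap.

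The response to TSA itself was compared between experiments, and 0 of the 72 passed in limma (7 had an unadjusted p under 0.05), where 0.0751% of all tested did. Stx3, a syntaxin of apical and granule exocytosis, had the smallest p of the 72. On 100499_at the exposed arrays were 5.8 and 4.0 in experiment 2 (TSA, AzaC/TSA), against 92.4 and 136.5 in experiment 1, with all unexposed arrays under 20. The difference did not pass (limma adjusted p = 0.397), and since 6 of the 8 arrays are under the floor, its fitted size of -2.49 is set in part by the floor and is no measured difference. The other Stx3 probe sets, 100497_at and 100498_g_at, were not tested.

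Other differences of this kind pointed the opposite way. Rab23, a GTPase of ciliary and Hedgehog signalling, had 45.7, 57.1, 53.1 and 33.1 in experiment 2 (TSA, AzaC/TSA, AzaC, untreated), against 23.9, 22.4, 79.7 and 59.5 in experiment 1 (1.86, adjusted p = 0.419). Rab5b, a GTPase of early endosomes, had 63.4, 83.5, 12.2 and 27.2, against 46.1, 29.8, 48.3 and 47.7 (2.01, adjusted p = 0.419). In both, the exposed array was higher than its unexposed partner in each pair of experiment 2 and lower in each pair of experiment 1. Rab5if (0.94, adjusted p = 0.397) and Rab7 95785_s_at (1.00, adjusted p = 0.437) did not pass either.

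**Figure D4:**
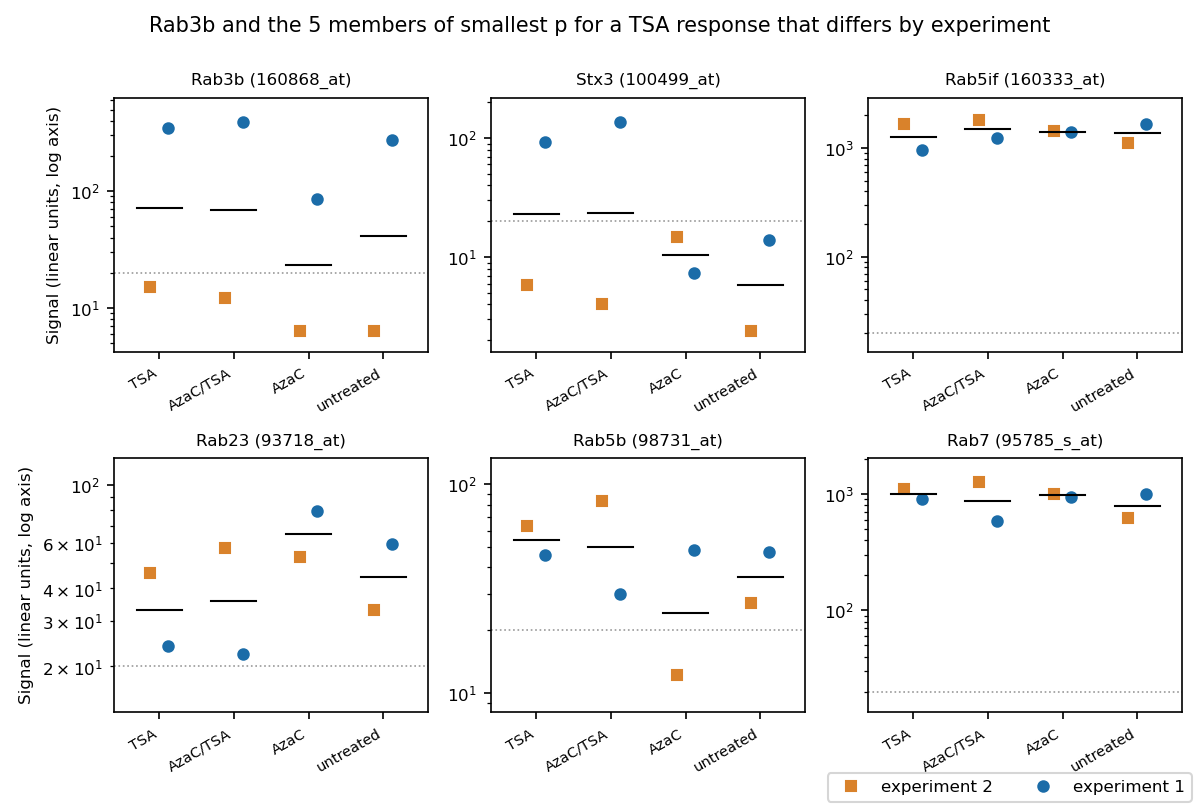
Signal on each array (linear units, log axis) of Rab3b and of the 5 probe sets with the smallest p for a response to TSA that differs between experiments, by group from left to right TSA, AzaC/TSA, AzaC and untreated. Squares are experiment 2, circles experiment 1, bars the geometric mean of the 2 arrays and the dotted line the floor of 20; the Rab3b squares lie at 15.0 or below and its circles at 86.3 or above.

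Probe sets of the same gene did not always tell the same story. Of 11 genes with several tested probe sets, Rab11a and Rab31 had both past the threshold for TSA exposure in the same direction, Vamp4 had 1 of 2, and Arf3, Rab10, Rab14, Rab33b, Rab3ip, Rab6a, Rab7 and Vamp2 had none. In Arf3, Rab14, Rab3ip and Vamp2 the probe sets differed in sign, without passing. Vamp2, the SNARE of synaptic vesicles and partner of Stx1a and Snap25, had on probe set 98926_at 563.9, 376.5, 468.7 and 288.7 in exposed arrays, against 368.8, 312.7, 447.4 and 297.9 in unexposed ones, which overlap. Vamp5, a muscle-associated SNARE, had 68.1, 17.0, 102.3 and 49.9, against 11.6, 14.7, 17.0 and 11.6 (log2 at least 1.36, limma adjusted p = 0.103, and log2 at least 1.80 without TSA 2). All unexposed Vamp5 arrays and TSA 2 were under the floor, so Vamp5 passed the filter through exposed arrays alone. Vamp7, a SNARE of late endosomes and lysosomes, had on 102885_at 153.8, 70.3, 103.1 and 98.7, against 47.6, 88.8, 88.9 and 71.7, which overlap (log2 0.51, adjusted p = 0.375). Probe sets 162113_r_at of Vamp7, 162141_r_at of Rab2a and 102116_f_at of Syt3 were not tested.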

How the data were processed

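The authors deposited 1 table of intensity values on a linear scale, 1 per probe set and array, and the deposited values show that each array had been scaled to a 2%-trimmed mean of 200.1. The upstream software is not given in the sources used here. Probe set names are of the Affymetrix type, and the array annotation gave a single symbol to 10855 of 12488 probe sets, several to 396 and none to 1237. All 98 members were found in RefSeq's gene table by gene ID, and none had a newer symbol there.

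The 66 control probe sets were left out, values under 10% of the trimmed mean were raised to that floor, and log2 values were taken. Probe sets with at least 2 of 8 arrays at 25% of the trimmed mean were tested (7987). limma 3.58.1 (R 4.3.3) fitted group means over all 8 arrays, using lmFit and eBayes with an intensity trend (4 residual degrees of freedom, prior 4.93). Tests were two-sided, adjusted by Benjamini-Hochberg over all 7987, with a threshold of 0.05. The fit was tested on simulated data. Fold changes are on the floored scale.

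The members, the marker and partner gene lists and the roles were chosen with earlier results of these data known. Named genes are the members past the threshold, the 5 of smallest p in a comparison with fewer than 5, all probe sets of a gene so named where several exist, the 3 of smallest p per family for TSA exposure, and the called genes of each partner list. Rab4a, Rab8b, Rab11b, Rab24, Rab3il1, Stx2, Stx6, Syt4, Vamp2 and the genes whose arrays did not overlap are further names chosen after their values were seen. The comparison between experiments was added after seeing the data. Experiment numbers come from the sample titles, and arrays of the same number deviated together from their group means in all 6 pairs of groups (r of 0.203 to 0.411).

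The alternatives, each varying a single choice, were quantile normalization, a floor of 2.5% or 20%, no filter or one at 50%, no intensity trend, the experiment as a replicate block, only the groups compared, and each array left out in turn, which leaves its group with 1 array that is assumed to vary like the others. Promoter windows came from RefSeq's GRCm38.p6 table, which held none for 11 of the 74 genes.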

Additional observations from a re-analysis of the deposited data

How the results depend on the processing

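Results here are counts of the 72 tested members past the threshold, and the number of arrays limits all of them. For TSA exposure 11 passed, with 8 without the intensity trend, 10 or 11 under quantile normalization, either floor or the stricter filter, 6 without a filter, and 6 to 8 with 1 array left out. For TSA over untreated 4 passed, with 0 without a filter, 0 with no intensity trend, 2 when other groups were left out of the fit, and 0 to 5 with 1 array left out. For AzaC/TSA over untreated 1 passed, with 0 under quantile normalization, 0 with a floor of 20%, 0 without a filter, 0 with no intensity trend, 0 when other groups were left out, and 0 to 1 with 1 array left out. For experiment 2 over experiment 1 there were 2, with 0 without a filter, 1 without the intensity trend, 3 (1 of them higher) with the filter at 50%, and 1 to 2 with 1 array left out. In the comparisons of AzaC, AzaC exposure, the interaction and the TSA response by experiment, 0 members passed under every alternative run. Without a filter more dim probe sets entered the variance trend and the adjustment; which of these lowers the counts was not tested.

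With the experiment as a replicate block, 16 members passed for TSA exposure, 6 for TSA over untreated and 3 for AzaC/TSA over untreated, and it changed no other count of members.

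Vamp4 93191_at, Rab34 and Rab31 161380_f_at passed for TSA exposure in 15 of 15 alternatives, Stx1a in 14 of 14, Rab31 96811_at in 14, Rab3d in 12, Rab10os in 10, Rab11a 92854_at in 9 and 96238_at in 5, Stx12 in 6 and Rab12 in 4. Arf4, which did not pass, changed sign when 1 array was left out: its log2 change ran from -0.29 without untreated 1 to 0.0055 without untreated 2, and the cause was not tested. Over all probe sets, 1157 passed for TSA exposure, against 672 without a filter, 1908 with the replicate block and 575 to 804 with 1 array left out. For TSA over untreated the 401 became 135 without a filter, 216 with no intensity trend, 171 when other groups were left out, 971 with the block and 56 to 367 with 1 array left out. For AzaC/TSA over untreated the 249 became 63, 152, 49, 746 and 14 to 223. For the experiments the 337 became 0 without a filter, 74 without the intensity trend, and 68 to 256 with 1 array left out. For the TSA response by experiment the 6 became 0 in each of these.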

Other observations

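A few dim or uneven members, picked after their values were seen, passed in none of the comparisons above. Stx2, Rab8b and Rab3il1 were tested and did not pass. Syt4, a synaptotagmin of dense-core granules, was not tested because no array reached a signal of 50. Its signals were 48, 37.1, 36.4 and 3.6 in TSA 1, TSA 2, AzaC/TSA 1 and AzaC/TSA 2, against 2.9, 8.3, 6.4 and 9.5 in AzaC 1, AzaC 2, untreated 1 and untreated 2. Only 3 of the 4 exposed arrays were above the floor, and none of the unexposed ones.

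Stx2, a syntaxin of the plasma membrane, varied most in untreated cells. It had 303.0 and 246.3 in TSA cells, 243.4 and 175.5 in AzaC/TSA cells and 169.4 and 160.2 in AzaC cells, against 20.3 and 307.1 in untreated cells. The untreated array of experiment 1 stood far under the other 7. Rab8b, a GTPase of polarised exocytosis, had 83.7, 66.7, 57.5 and 86.3 in the 4 exposed arrays, against 24.6, 62.5, 29.3 and 42.2 in the 4 unexposed ones, and Rab3il1, an exchange factor for Rab8, had 74.0, 48.4, 58.0 and 70.3 against 64.3, 32.2, 32.4 and 18. AzaC/TSA 1 of Rab8b lay under AzaC 2, so its groups overlap, as those of Rab3il1 do.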
